A study of Mus musculus with 12 samples.

Results

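The mitochondrial ribosomal protein genes are the nuclear genes whose symbols begin with Mrpl or Mrps followed by a number. This rule found 78 of the 24781 genes in the table, 49 with large subunit symbols (Mrpl) and 29 with small subunit symbols (Mrps). They were measured in mouse iNKT cells (invariant natural killer T cells), a lymphocyte lineage with a near-fixed receptor for lipids shown by the CD1d molecule. The mice were 6 weeks old, and each library held 100 cells that bound CD1d tetramer and stained for TCRbeta, NK1.1 and CXCR6. There were 4 groups of 3 libraries: lung CD244-positive, lung CD244-negative, thymus CD244-positive and thymus CD244-negative. The series title names the CD244-positive cells C2 and the CD244-negative cells C1. Strain and any treatment of the mice are not given in the sources used here. The labels call the 3 libraries of a group independent preparations and name no separate animals, so p-values measure the spread between these libraries, which may be technical.

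Mitochondria carry their own ribosome, which translates the few membrane proteins encoded in mitochondrial DNA, all of them subunits of the oxidative phosphorylation complexes. Its RNAs are made in the mitochondrion, but every one of its proteins is encoded in the nucleus, translated in the cytosol and imported. Many of these proteins descend from bacterial ribosomal proteins and others are found only in mitochondrial ribosomes. T cells raise mitochondrial translation when they are activated, and cytotoxic T cells need it for sustained killing.

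Of the 78 genes, 30 encode large subunit proteins with bacterial homologues and 21 encode large subunit proteins specific to mitochondria. The second of these classes includes Mrps30 and Mrps18a, whose proteins sit in the large subunit despite their symbols. A further 16 encode small subunit proteins with bacterial homologues and 10 encode small subunit proteins specific to mitochondria. The last gene, Mrps36, was later placed in the 2-oxoglutarate dehydrogenase complex. No row of the table was mitochondrially encoded, so the RNAs of this ribosome and the messages it translates are not analysed here.

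All 78 symbols matched 1 protein-coding gene each in the GENCODE M21 annotation of mm10, and they lie on 17 chromosomes. A protein-coding gene on the opposite strand started within 1000 bases upstream of the start of 18 of them (23.1%), against 6.79% of all 21951 protein-coding genes. Partners that started inside the gene were not counted. Examples are Mrpl30 with Mitd1, 66 bases apart, and Mrps18b with Ppp1r10, 45 bases apart. Exons of 33 of the 78 genes overlapped those of another gene. Mrpl46 and Mrps11 overlap each other on chromosome 7, on opposite strands and at their starts. Whether counting used strand, or reads from that end, is not given in the sources used here. Whether molecules of these genes were mixed is thus not known.

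The 250 bases before the RefSeq start (GRCm38.p6) were found for 69 of the 78 genes, in 75 windows, and a gene was counted when any of its windows held a motif on either strand. The ETS core bound by GABPA, CCGGAAG, stood before 18 genes (26.1%), against 7.83% of all 27025 genes with such a window and 18.5% of the genes tested below. The NRF1 motif, GCGCA and GCGC with any 1 base between them, stood before 10 genes (14.5%), against 4.23% of all genes and 11.6% of tested genes. The YY1 motif AAGATGGC stood before 4 genes (5.80%), against 1.83% and 2.77%. The CCAAT box stood before 25 genes (36.2%), against 37.5% and 39.7%. These 3 factors, GABPA, NRF1 and YY1, are textbook activators of nuclear genes for mitochondrial proteins. In the 69 genes, matches of these 3 motifs overlapped each other 0 times. A match is a run of letters and not a measured binding site.

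The following 4 upstream windows show what these letters look like, with matches in capitals. Mrpl9 and Mrps14 are the genes that passed a test below, and Mrpl30 and Mrpl52 are among the members with the most molecules. All lie on the plus strand: Mrpl9 at chr3:94443086-94443335, with an NRF1 match; Mrps14 at chr1:160194965-160195214, with no match; Mrpl30 at chr1:37890227-37890476, with an NRF1 match; and Mrpl52 at chr14:54426659-54426908, with an ETS match.
Mrpl9: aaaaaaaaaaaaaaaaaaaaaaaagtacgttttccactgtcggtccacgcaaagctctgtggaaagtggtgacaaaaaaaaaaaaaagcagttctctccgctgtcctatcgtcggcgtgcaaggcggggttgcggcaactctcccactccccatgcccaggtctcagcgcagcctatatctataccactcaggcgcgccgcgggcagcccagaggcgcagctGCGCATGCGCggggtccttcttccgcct
Mrps14: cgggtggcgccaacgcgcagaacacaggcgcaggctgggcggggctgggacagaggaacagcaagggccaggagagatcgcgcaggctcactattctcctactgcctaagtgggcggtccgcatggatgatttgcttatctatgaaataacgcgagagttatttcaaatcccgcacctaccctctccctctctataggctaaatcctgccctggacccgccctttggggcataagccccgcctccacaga
Mrpl30: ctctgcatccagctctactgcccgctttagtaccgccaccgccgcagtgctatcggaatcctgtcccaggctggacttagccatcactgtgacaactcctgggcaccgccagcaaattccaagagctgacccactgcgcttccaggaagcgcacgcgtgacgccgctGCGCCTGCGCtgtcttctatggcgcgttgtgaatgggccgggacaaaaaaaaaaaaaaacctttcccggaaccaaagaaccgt
Mrpl52: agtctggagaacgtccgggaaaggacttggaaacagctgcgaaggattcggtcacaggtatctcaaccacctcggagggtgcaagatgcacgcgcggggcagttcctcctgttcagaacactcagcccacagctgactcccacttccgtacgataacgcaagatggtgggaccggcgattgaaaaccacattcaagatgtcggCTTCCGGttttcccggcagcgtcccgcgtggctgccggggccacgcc

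The values are molecules counted through barcodes in the oligo-dT primer, scaled by the authors with 1 constant per library. Molecule numbers were recovered by dividing by that constant, which made 94.3% to 95.9% of the values above 0 whole in each library and left the others as fractions, and levels are given as molecules per 10000 of a library. The libraries held 42520 to 51436 molecules in lung CD244-positive, 29696 to 32196 in lung CD244-negative, 56615 to 71789 in thymus CD244-positive and 60120 to 67478 in CD244-negative thymus cells. Cd244 itself had 1, 1 and 0 molecules in lung CD244-positive libraries, 0 in every lung CD244-negative library, 8, 1 and 4 in thymus CD244-positive libraries and 0 in every thymus CD244-negative library. Cxcr6, a gene of the sort, had 15, 1 and 1 molecules in lung CD244-positive libraries, against 10, 13 and 15 in lung CD244-negative ones. It had 31, 27 and 43 in thymus CD244-positive and 43, 26 and 27 in thymus CD244-negative libraries. Lung CD244-positive libraries 2 and 3 thus stood below their label for Cxcr6, and the main results that rest on them are also given with library 1 alone. The summed level of 12 macrophage and monocyte markers was 78.6, 157 and 129 per 10000 in lung CD244-positive libraries, 1.01 to 2.65 in lung CD244-negative, 0.946 to 1.25 in thymus CD244-positive and 0.998 to 1.63 in thymus CD244-negative libraries. Of these 12 markers 0 were at 0 in lung CD244-positive cells and 9 in lung CD244-negative cells. Dendritic cell and MHC class II markers, 7 genes, averaged 81.8 ± 40.2 per 10000 in lung CD244-positive and 0.430 ± 0.166 in lung CD244-negative cells. The list names Cd74, H2-Aa, H2-Ab1, H2-Eb1, Flt3, Xcr1 and Clec9a. Of these 7 markers 2 were at 0 in lung CD244-positive and 3 in lung CD244-negative cells. Which cell type gave this sum was not tested. A list of 14 genes, 11 of them in the table, is called the T cell receptor (TCR) complex genes below. Besides receptor and CD3 genes it names Thy1, Cd2, Cd5, Cd6, Lck, Zap70 and Lat, which are not subunits of that complex. Its sum is thus not that of the complex alone. Per 10000, this sum ranged from 12.9 to 24.2 in CD244-positive lung libraries. Among CD244-negative lung libraries the range was 34.3 to 40.0. Thymus ranges were 26.5 to 30.8 with CD244 and 32.5 to 35.6 without it. The 8 iNKT markers in the table, Cd244 and Cxcr6 among them, summed to 12.3 ± 3.69 in lung CD244-positive and 22.5 ± 2.44 in lung CD244-negative cells. In thymus CD244-positive and CD244-negative cells they summed to 33.5 ± 2.62 and 29.4 ± 3.85. For this sum, lung CD244-positive libraries overlapped neither lung CD244-negative nor thymus CD244-positive ones. Each lung result below that uses CD244-positive cells carries these differences, and their part in it was not tested.

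Mitochondrial ribosomal protein messages were low one by one. All 78 genes together had 2008 molecules in the 12 libraries, with a median of 19 per gene. A molecule of 11 genes was found in every library. Of the 6 genes found in under 6 libraries, Mrps10 had 2 molecules, both in thymus CD244-positive library 1, and Mrps27 had 1 molecule, in thymus CD244-negative library 1. The mean number of genes detected was 54.0 ± 6.56 in lung CD244-positive, 48.3 ± 4.73 in lung CD244-negative, 65.0 ± 1.0 in thymus CD244-positive and 69.0 ± 1.73 in CD244-negative thymus libraries (SD, n = 3 each). With each gene rounded to whole molecules the shallowest library held 29719, and after every library was thinned to that number these means were 44.7 ± 6.51, 47.3 ± 4.04, 45.3 ± 2.08 and 51.0 ± 5.0 in the same order, and the ranges of all 4 groups overlapped.

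**Figure D1:**
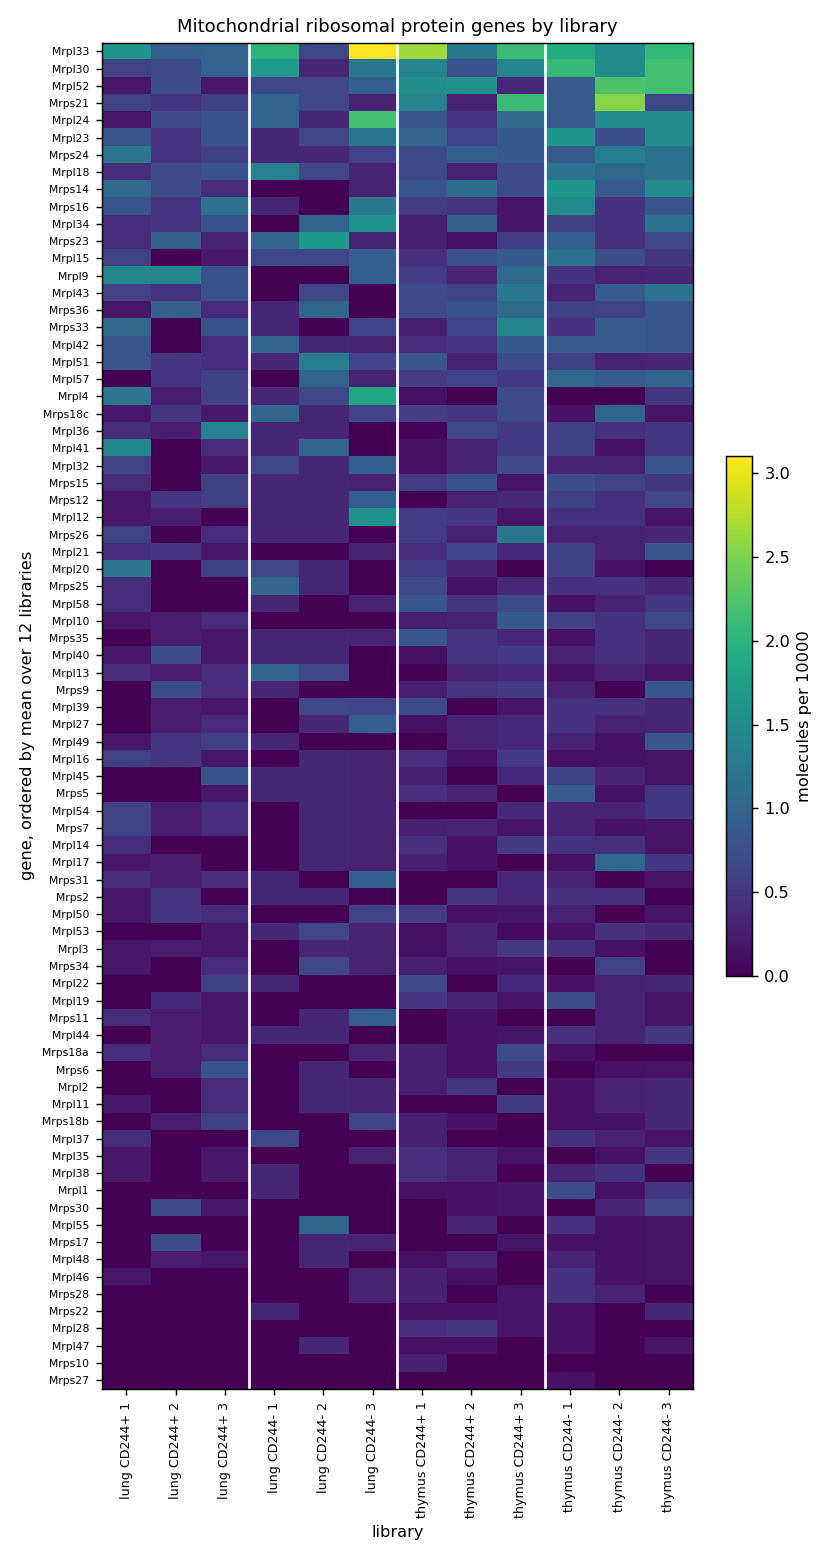
Level of each of the 78 mitochondrial ribosomal protein genes (rows, ordered by mean) in each of the 12 libraries (columns, by group), in molecules per 10000. Most rows are dark with isolated brighter cells, since the median gene has 19 molecules over all libraries.

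The 10 genes with the highest means held 31.1% of the summed level. They were Mrpl33, Mrpl30, Mrpl52, Mrpl24, Mrpl23 and Mrpl18 of the large subunit and Mrps21, Mrps24, Mrps14 and Mrps16 of the small subunit. Of these Mrpl52 has no bacterial homologue and the other 9 do. The molecule numbers are not divided by transcript length, so no order of expression between genes is read from them. Mrpl33 had 8, 4 and 5 molecules in lung CD244-positive, 6, 2 and 10 in lung CD244-negative, 19, 8 and 12 in thymus CD244-positive and 13, 10 and 12.5 in thymus CD244-negative libraries, the fraction being part of the deposited value. Per 10000, its groups averaged 1.18 ± 0.393, 1.93 ± 1.22, 2.01 ± 0.699 and 1.83 ± 0.303 in that order, with overlapping ranges. Mrpl30 had 3, 3 and 5 molecules in lung CD244-positive, 5, 1 and 4 in lung CD244-negative, 10, 5 and 8 in thymus CD244-positive and 14, 10 and 13 in thymus CD244-negative libraries. Per 10000, its level in thymus CD244-negative libraries did not overlap that of thymus CD244-positive libraries, and lung CD244-negative library 1, at 1.68, lay within their range of 1.5 to 2.16. Mrps21 had 3, 2 and 3, then 3, 2 and 1, then 10, 2 and 12, then 6, 17 and 4 molecules in the same order of groups. Its thymus libraries differed more within a group than between the groups.

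**Figure D2:**
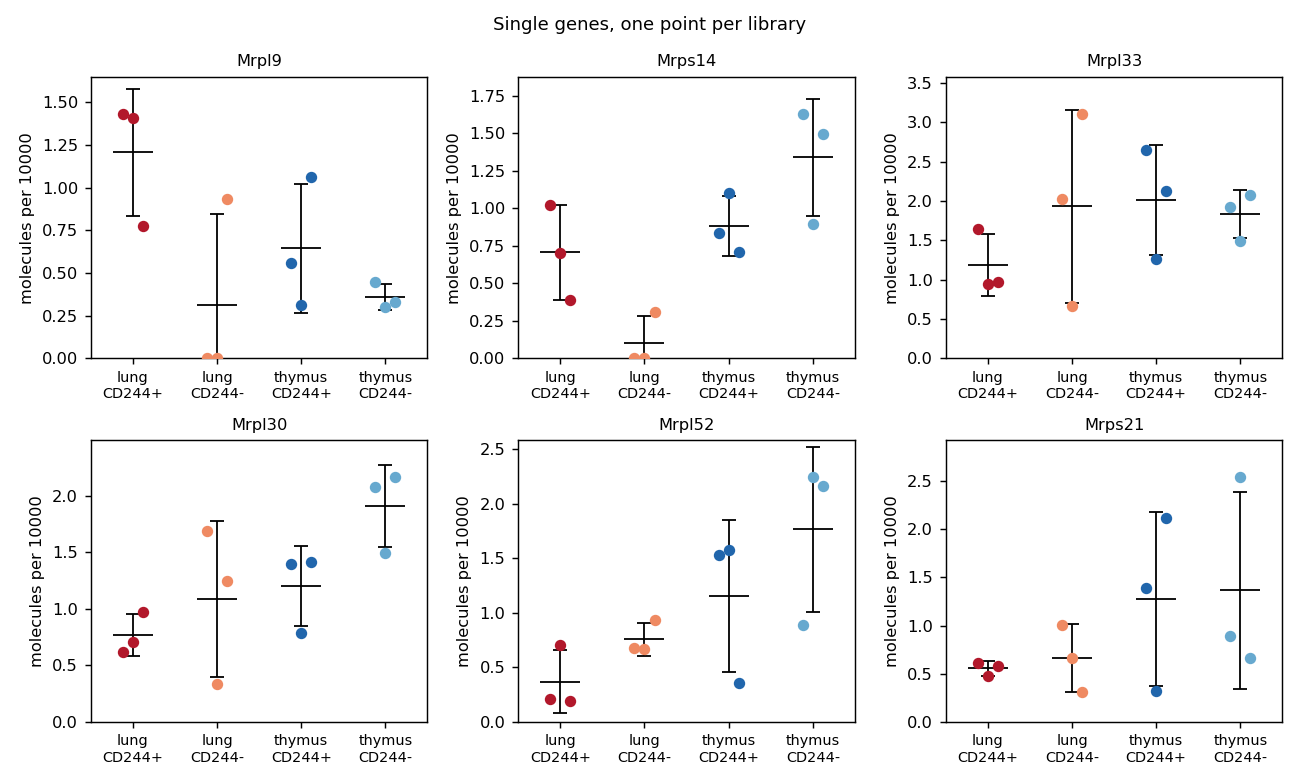
Level in molecules per 10000 of Mrpl9, Mrps14, Mrpl33, Mrpl30, Mrpl52 and Mrps21 in each group (points, libraries; line and bars, mean and SD, n = 3). Mrpl9 is at 0 in 2 lung CD244-negative libraries, Mrps14 is at 0 in the same 2, and the thymus points of Mrps21 span most of its axis.

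Summed over all 78 genes, the mitochondrial ribosomal protein message as a share of the library total was lowest in lung CD244-positive and highest in thymus CD244-negative cells. The sum was 28.5, 22.5 and 28.3 molecules per 10000 in lung CD244-positive libraries, 24.9, 26.9 and 34.2 in lung CD244-negative, 32.6, 28.1 and 36.3 in thymus CD244-positive and 38.9, 36.1 and 40.2 in thymus CD244-negative libraries. The group means were 26.4 ± 3.41, 28.7 ± 4.87, 32.3 ± 4.13 and 38.4 ± 2.06 in that order (SD, n = 3 each), from 380, 265, 618 and 745 molecules. In the order of the means, neighbouring groups overlapped in each case, while lung CD244-negative and thymus CD244-negative libraries did not. In libraries of 100 sorted cells, fewer cells of a type and less RNA per cell cannot be told apart. The sums carry no p-value, because the genes were chosen with results of these data known. The choice of denominator bears on the order: divided by the TCR complex genes in place of the total, the sum was 1.54 ± 0.316 in lung CD244-positive, 0.757 ± 0.104 in lung CD244-negative, 1.13 ± 0.215 in thymus CD244-positive and 1.14 ± 0.0326 in CD244-negative thymus cells. Lung CD244-positive library 1 alone stood at 1.18 on this scale, within the range of thymus CD244-positive libraries. On that scale lung CD244-positive cells had the highest mean, and lung CD244-negative cells still lay below thymus CD244-negative cells without overlap.

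The large subunit genes averaged 16.9 ± 3.12 per 10000 in lung CD244-positive, 19.8 ± 4.0 in lung CD244-negative, 21.0 ± 2.23 in thymus CD244-positive and 25.7 ± 2.46 in CD244-negative thymus cells. The small subunit genes averaged 9.53 ± 0.432, 8.88 ± 0.916, 11.3 ± 2.08 and 12.7 ± 0.404 in the same order. The large sum was 1.77 ± 0.291, 2.21 ± 0.240, 1.87 ± 0.191 and 2.03 ± 0.256 times the small sum. The ribosome holds the subunits in equal number, and these ratios overlapped between groups.

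**Figure D3:**
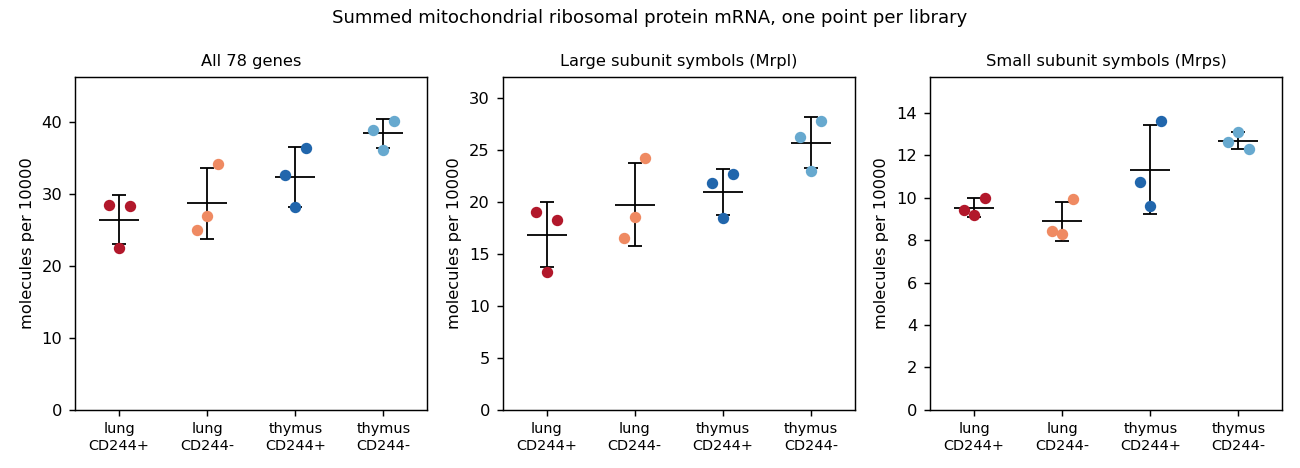
Summed level, in molecules per 10000, of all 78 genes, of the 49 Mrpl genes and of the 29 Mrps genes in each group (points, libraries; line and bars, mean and SD, n = 3). The thymus CD244-negative points of the total, 36.1 to 40.2, lie above all lung points on this scale; divided by TCR complex genes, lung CD244-positive has the highest mean.

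The first comparison was CD244-positive with CD244-negative cells of the thymus, C2 with C1. The summed level was 32.3 ± 4.13 per 10000 in CD244-positive cells and 38.4 ± 2.06 in CD244-negative cells (SD, n = 3 each), a ratio of 0.842, and the groups overlapped by 1 library. Divided by the TCR complex genes, the ratio was 0.992 with overlap. Those genes themselves summed to 28.8 ± 2.17 per 10000 in CD244-positive and 33.7 ± 1.67 in CD244-negative cells, without overlap. Beside it, 7 thymocyte markers (Rag1, Rag2, Dntt, Ptcra, Cd8a, Cd8b1 and Cd4) summed to 0.244 ± 0.218 in CD244-positive and 0.693 ± 0.111 in CD244-negative cells without overlap. These sums rested on 5 and 13 molecules, and 4 of the 7 markers were at 0 in each group. The same list summed to 0.930 ± 0.361 in lung CD244-negative cells. Its part in the thymus difference was not tested. The large subunit sum was 0.817 of that in CD244-negative cells and did not overlap, while the small subunit sum was 0.893 and overlapped. By role, small subunit proteins with bacterial homologues stood at 6.59 ± 0.412 in CD244-positive cells and 8.43 ± 0.822 in CD244-negative cells, and large subunit proteins specific to mitochondria at 7.73 ± 0.694 and 9.71 ± 0.992. Neither of these classes overlapped between the groups per 10000. Divided by the TCR complex genes, both classes and the large subunit sum did overlap. Small subunit proteins specific to mitochondria, at 3.40 ± 1.22 and 3.21 ± 0.178, did overlap.

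Single genes were tested by limma on log2 of the rescaled value plus 1, for the 5199 genes whose value exceeded 1 in at least 3 libraries, with Benjamini-Hochberg adjustment over all of them and a threshold of 0.05. This filter kept 43 of the 78 genes, 28 Mrpl and 15 Mrps, and 4 of the 43, Mrpl10, Mrpl14, Mrpl58 and Mrps35, passed it through thymus libraries only. Those 4 could pass only by being high in thymus, so their direction in lung against thymus is given as a description and not as support. The 35 others held 22.3% of the summed level. In thymus 0 of the 43 passed the threshold, where 0.269% of all tested genes did. At an unadjusted p under 0.05 there were again 0, against 4.19% of all tested genes, and edgeR, run on rounded molecule numbers of 9 libraries, called 0 of the 2 members it could test. The median log2 fold change of the 43 genes was -0.13, against -0.01 over all tested genes, and 26 of 43 lay below 0. Without the filter, 50 of all 78 genes had the lower mean in CD244-positive cells (64.1%), against 51.5% of all genes with a molecule.

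Of all 78 genes, 2 were higher and 5 lower without overlap (8.97%), against 8.57% of all genes with a molecule. The 2 higher were Mrpl28 and Mrps18a, which were not tested. Among the 43 tested genes the groups did not overlap for 4 (9.3%), against 12% of all tested genes in either direction. All 4 were lower in CD244-positive cells, a direction shown without overlap by 6.58% of all tested genes. These 4 were Mrpl18, Mrpl30, Mrpl57 and Mrps12. Mrpl18, a large subunit protein with a bacterial homologue, was the gene with the smallest p. It had 5, 2 and 4 molecules in CD244-positive and 8, 7 and 7 in CD244-negative libraries, a log2 fold change of -0.66 with a standard error of 0.39 and a limma adjusted p of 1. Mrps12, whose bacterial homologue lies at the decoding centre, had 0, 2 and 2 molecules in CD244-positive and 4, 3 and 4 in CD244-negative libraries, a log2 fold change of -0.65 and a limma adjusted p of 1. Mrpl58, a peptidyl-tRNA hydrolase that frees stalled mitochondrial ribosomes, pointed the other way with 6, 3 and 4 molecules in CD244-positive and 1, 2 and 3 in CD244-negative libraries, a log2 fold change of 0.57 and a limma adjusted p of 1.

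The second comparison was CD244-positive with CD244-negative cells of the lung. The sum was 26.4 ± 3.41 per 10000 in CD244-positive and 28.7 ± 4.87 in CD244-negative cells (SD, n = 3 each), a ratio of 0.921 with overlapping libraries. CD244-positive library 1 alone gave 28.5, a ratio of 0.993. Divided by the TCR complex genes, the ratio was 2.04, or 1.56 with library 1 alone, and the groups did not overlap, so the direction of the lung difference turned with the denominator. The large subunit sum had a ratio of 0.853 and the small subunit sum one of 1.07, and both overlapped. With library 1 alone these ratios were 0.963 and 1.06. Small subunit proteins specific to mitochondria stood at 2.58 ± 0.806 in CD244-positive and 3.38 ± 0.303 in CD244-negative cells, a ratio of 0.763 without overlap. Library 1 alone stood at 3.07, just under the lowest CD244-negative library at 3.11. Divided by the TCR complex genes the ratio of this class was 1.62, the other direction, again without overlap.

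Of the 43 tested genes 1 passed the threshold in the lung, Mrpl9 (2.33%), against 9.89% of all tested genes and 6.44% called higher. At an unadjusted p under 0.05 there were 4 of 43, against 21.5% of all tested genes. The median log2 fold change was -0.08 over the 43 genes and 0.00 over all tested genes, with 25 of 43 below 0. Of all genes with a molecule in these libraries, 43 of 75 members had the lower mean in CD244-positive cells (57.3%), against 45.9% of all genes. The groups did not overlap for 2 of the 43 that were higher, against 11.9% of all tested genes, and for 3 that were lower, against 9.46%.

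Mrpl9 encodes a large subunit protein whose bacterial homologue is a long protein that reaches out from the ribosome near the L1 stalk. The gene lies on the plus strand at chr3:94443318-94451130 (mm10), and its exons overlap Oaz3 on the opposite strand. It had 7, 6 and 4 molecules in lung CD244-positive libraries, against 0, 0 and 3 in lung CD244-negative libraries. All 3 CD244-positive libraries were higher than the CD244-negative ones in molecules, but per 10000 the lowest CD244-positive library lay below the highest CD244-negative one. The log2 fold change was 1.34 with a standard error of 0.42 and a limma adjusted p of 0.0281. The ratio of the molecules, 17 against 3, was 3.65 after division by the group totals, with an exact 95% counting interval of 1.06 to 19.5. In thymus Mrpl9 had 4, 2 and 6 molecules in CD244-positive and 3, 2 and 2 in CD244-negative libraries. With library 1 of the lung CD244-positive cells alone 0 of 40 tested members passed. The Mrpl9 call was lost there (adjusted p = 0.254) and when any of 4 single libraries was left out: lung CD244-positive 1 (0.106) or 2 (0.113), or lung CD244-negative 1 (0.135) or 2 (0.137).

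Genes that missed the threshold moved both ways. Mrps14 had 5, 3 and 2 molecules in lung CD244-positive and 0, 0 and 1 in lung CD244-negative libraries, without overlap, at a log2 fold change of 1.10 and a limma adjusted p of 0.0675. Mrpl10, which carries the stalk proteins of the large subunit, had 1, 1 and 2 molecules in CD244-positive and 0 in every CD244-negative library, at a limma adjusted p of 0.298. Mrpl12, a stalk protein, had 1, 1 and 0 molecules in CD244-positive and 1, 1 and 5 in CD244-negative libraries, a log2 fold change of -0.89 and a limma adjusted p of 0.183. Mrpl15 had 3, 0 and 1 molecules in CD244-positive and 2, 2 and 3 in CD244-negative libraries, a log2 fold change of -0.85 and a limma adjusted p of 0.202.

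**Figure D4:**
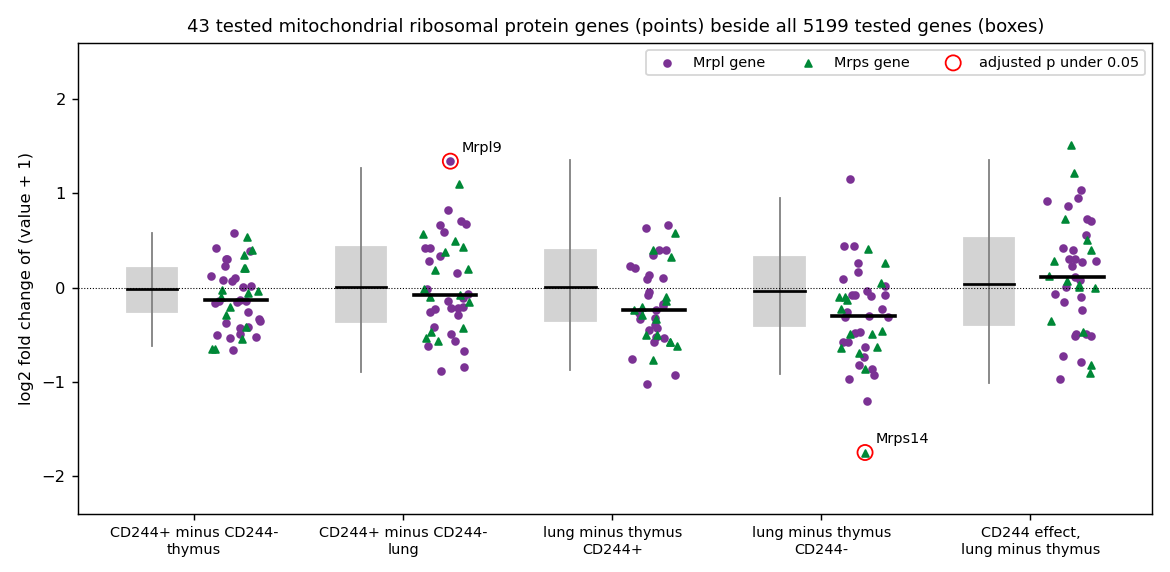
Log2 fold change of the 43 tested genes (points; circles Mrpl, triangles Mrps; bar, their median) in each of the 5 comparisons, beside all 5199 tested genes (box, 25th to 75th percentile; line, 5th to 95th; bar, median). The members' medians lie at -0.13, -0.08, -0.24, -0.30 and 0.12 from left to right, and only Mrpl9 and Mrps14 are ringed as past the threshold. Scaled to the TCR complex genes, the members' median is 0.50 in lung and 0.22 in lung against thymus CD244-positive cells.

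The third comparison was lung with thymus among CD244-positive cells. The sum was 26.4 ± 3.41 per 10000 in lung and 32.3 ± 4.13 in thymus (SD, n = 3 each), a ratio of 0.816, and 2 lung libraries lay above the lowest thymus library. Lung library 1 alone gave a ratio of 0.880. Division by the TCR complex genes gave one of 1.36, the other direction, with overlap, and one of 1.04 with library 1 alone. Of the 43 tested genes 0 passed the threshold, against 10.9% of all tested genes. At an unadjusted p under 0.05 there were 2, against 20.7%, and edgeR called 0 of the 2 members it tested. The median log2 fold change was -0.24 over the 43 genes and 0.00 over all tested genes, and 30 of 43 lay below 0. Mrpl10, Mrpl14, Mrpl58 and Mrps35, which passed the filter through thymus alone, are counted in them, at -0.33, -0.54, -1.02 and -0.77. The median and the count are thus descriptive. With lung CD244-positive library 1 alone 0 of 40 tested members passed and their median was -0.08. Of 77 members with a molecule, 50 had the lower mean in lung (64.9%), against 45.0% of all genes. The groups did not overlap for 3 of the 43 (6.98%), all lower in lung, against 11.7% of all tested genes in that direction and 26.1% in either. These were Mrpl58, Mrps18c and Mrps35, and all but Mrps18c are among the genes that passed the filter through thymus alone. Mrpl58 had 2, 0 and 0 molecules in lung and 6, 3 and 4 in thymus, a log2 fold change of -1.02 and a limma adjusted p of 0.101. Mrpl52, a large subunit protein specific to mitochondria, had 1, 3 and 1 molecules in lung and 11, 10 and 2 in thymus, a log2 fold change of -0.92 and a limma adjusted p of 0.156.

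The fourth comparison was lung with thymus among CD244-negative cells. Macrophage and monocyte markers summed to 1.95 ± 0.845 per 10000 in lung and 1.32 ± 0.317 in thymus, with overlap. Of 7 lung epithelium and endothelium markers 2 were at 0 in lung and 6 in thymus, and they summed to 2.43 ± 1.11 in lung and 0.0988 ± 0.171 in thymus. The dendritic cell and MHC class II markers summed to 0.430 ± 0.166 in lung and 0.0499 ± 0.0863 in thymus, from 4 and 1 molecules. The 8 iNKT markers in the table summed to 22.5 ± 2.44 in lung and 29.4 ± 3.85 in thymus. These last 3 lists did not overlap, and their part in the results of this comparison was not tested. The sum was 28.7 ± 4.87 per 10000 in lung and 38.4 ± 2.06 in thymus (SD, n = 3 each), a ratio of 0.746 with no overlap. Divided by the TCR complex genes the ratio was 0.664, also with no overlap. The small subunit sum had a ratio of 0.700 without overlap and the large subunit sum one of 0.769 with overlap. Small subunit proteins with bacterial homologues stood at 4.96 ± 1.37 in lung and 8.43 ± 0.822 in thymus, a ratio of 0.588, and large subunit proteins specific to mitochondria at 6.21 ± 1.52 in lung and 9.71 ± 0.992 in thymus, a ratio of 0.640. Neither class overlapped. Small subunit proteins specific to mitochondria, at 3.38 ± 0.303 in lung and 3.21 ± 0.178 in thymus, did overlap and had a ratio of 1.05.

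Of the 43 tested genes 1 passed the threshold here, Mrps14, which was lower in lung, against 5.98% of all tested genes in either direction and 2.89% lower. At an unadjusted p under 0.05 there were 8 of 43 (18.6%), near the 17.5% of all tested genes. Lower in lung at that p were 7 of the 43 (16.3%), Mrpl10 among them, against 9.02% of all tested genes. Mrpl21, also among them, exceeded 1 in 0 lung CD244-negative, 2 thymus CD244-negative and 2 other libraries. Like Mrpl10, it needed the group where it was high to pass the filter, so this count is descriptive. The median log2 fold change was -0.30 over the 43 genes and -0.03 over all tested genes, and 33 of 43 lay below 0 (76.7%), against 52.3% of all tested genes. Mrpl10, Mrpl14, Mrpl58 and Mrps35, which passed the filter through thymus alone, are counted in them, at -1.21, -0.30, -0.23 and 0.05. The median and the count are thus descriptive. Of 77 members with a molecule, 49 had the lower mean in lung (63.6%), against 50.6% of all genes. The groups did not overlap for 5 of the 43 (11.6%), all lower in lung, against 10.2% of all tested genes in that direction and 20.4% in either. These were Mrpl10, Mrpl36, Mrps14, Mrps15 and Mrps24, of which Mrpl10 passed the filter through thymus alone.

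Mrps14 encodes a small subunit protein with a bacterial homologue in the head of that subunit. The gene lies on the plus strand at chr1:160195215-160202170 (mm10), with no exon shared with another gene. It had 0, 0 and 1 molecules in lung CD244-negative libraries, against 11, 6 and 9 in thymus CD244-negative libraries. Per 10000 this was 0.104 ± 0.179 in lung and 1.34 ± 0.390 in thymus, with no overlap. The log2 fold change was -1.75 with a standard error of 0.40 and a limma adjusted p of 0.00171. The ratio of the molecules, 1 against 26, was 0.0813 after division by the group totals, with an exact 95% counting interval of 0.00198 to 0.495. In CD244-positive cells the gene had 5, 3 and 2 molecules in lung and 6, 7 and 4 in thymus.

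Mrpl10 had 0 molecules in every lung CD244-negative library and 4, 3 and 4 in thymus CD244-negative libraries. The thymus level was 1.74 times a floor of 3 molecules over the lung group. This figure leaves out the counting error of the 11 thymus molecules, so it is not a lower bound. Mrpl10 had a limma adjusted p of 0.0508, and as a gene that passed the filter through thymus alone it supports no direction. Mrps24 had 1, 1 and 2 molecules in lung and 6, 9 and 7 in thymus, a log2 fold change of -0.87 and a limma adjusted p of 0.216. Mrpl4, a large subunit protein with a bacterial homologue, pointed the other way with 1, 2 and 6 molecules in lung and 0, 0 and 3 in thymus, a log2 fold change of 1.16 and a limma adjusted p of 0.118. Its highest library was lung CD244-negative 3, and thymus CD244-negative libraries 1 and 2 had none.

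The fifth comparison asked whether the CD244 difference itself differed between lung and thymus. Of the 43 genes 0 passed the threshold for this interaction, against 3.6% of all tested genes. The interaction uses all 4 groups, and the comparisons above share groups with each other, so they are not independent. At an unadjusted p under 0.05 there were 2, against 13.1%. EdgeR called 0 of the 2 members it tested. The median difference was 0.12 on the log2 scale over the 43 genes and 0.04 over all tested genes. Mrps14 had the smallest p, with a difference of 1.52, a standard error of 0.56 and a limma adjusted p of 0.152, and Mrps16 followed at 1.22 with a limma adjusted p of 0.373. The sum changed by -0.12 on the log2 scale with CD244 in lung and by -0.25 in thymus, a difference of 0.13. With lung CD244-positive library 1 alone that difference was 0.24 and 0 of 40 tested members passed.

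The library total that a share is divided by differed in make-up between the tissues. Cytosolic ribosomal protein genes, 83 in the table, took 14.3% to 17.2% of molecules in lung CD244-positive, 18.3% to 18.7% in lung CD244-negative, 27.0% to 28.7% in thymus CD244-positive and 27.0% to 29.1% in thymus CD244-negative libraries. Of the 79 that were tested, 0 rose and 71 fell in lung against thymus among CD244-positive cells, and 0 rose and 44 fell among CD244-negative cells, each with a limma adjusted p under 0.05. These falls were 89.9% and 55.7% of the list, against 3.96% and 2.89% of all tested genes. In lung CD244-positive against lung CD244-negative cells 4 rose (5.06%) and 29 fell (36.7%), against 6.44% and 3.44% of all tested genes, and in thymus 0 of the 79 were called, where 0.269% of all tested genes were. With lung CD244-positive library 1 alone 2 rose and 2 fell in that lung comparison, and 48 fell in lung against thymus CD244-positive cells. Scaled to the TCR complex genes, 73 rose and 0 fell in lung CD244-positive against lung CD244-negative cells, while 6 fell in lung against thymus CD244-positive and 34 in lung against thymus CD244-negative cells. Under that scaling 31.7% of all tested genes rose in the first of these comparisons, and 0.786% and 1.55% fell in the others. With these genes taken out of the total, the mitochondrial ribosomal sum was 31.3 ± 4.46 per 10000 in lung CD244-positive and 44.7 ± 5.66 in thymus CD244-positive cells, a ratio of 0.701, now without overlap. Lung library 1 alone stood at 34.3, a ratio of 0.768, below every thymus library. In CD244-negative cells it was 35.2 ± 5.99 in lung and 53.3 ± 3.6 in thymus, a ratio of 0.659 without overlap. Divided by the TCR complex genes, the cytosolic ribosomal sum had a ratio of 0.953 with overlap in lung against thymus CD244-positive cells, 0.592 without overlap in CD244-negative cells, and 1.86 in lung CD244-positive against lung CD244-negative cells, the other direction. With library 1 alone the ratios that use lung CD244-positive cells were 0.739 and 1.44.

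The nuclear subunits of the oxidative phosphorylation (OXPHOS) complexes are partners of the proteins that this ribosome makes. Their 88 genes summed to 126 ± 14.2 per 10000 in lung CD244-positive, 121 ± 6.59 in lung CD244-negative, 139 ± 11.8 in thymus CD244-positive and 156 ± 4.52 in CD244-negative thymus cells. The mitochondrial ribosomal sum was 21.1% ± 3.15, 23.7% ± 2.89, 23.4% ± 4.58 and 24.5% ± 0.848 of it in the same order, and the ranges of the groups overlapped in each of the 4 pairs compared. Lung CD244-positive library 1 alone stood at 24.6%, above the means of lung CD244-negative and thymus CD244-positive cells. With CD244 in lung the OXPHOS sum had a ratio of 1.04 where the mitochondrial ribosomal sum had one of 0.921, and both overlapped. This share does not depend on the denominator of the library. Of the 78 OXPHOS genes tested, 0 passed the threshold in thymus, against 0.269% of all tested genes. With CD244 in lung 2 rose and 1 fell (3.85% in all), against 9.89%. In lung against thymus 0 rose and 4 fell among CD244-positive cells (5.13%, against 3.96% of all genes called lower), and 0 rose and 7 fell among CD244-negative cells (8.97%, against 2.89%). With lung CD244-positive library 1 alone 0 of 77 passed in either comparison that uses these cells. Scaled to the TCR complex genes, 36 of 77 rose and 0 fell with CD244 in lung, 9 rose and 0 fell in lung against thymus CD244-positive cells, and 2 fell among CD244-negative cells. Under that scaling 31.7% and 19.2% of all tested genes rose in the first 2 of these comparisons, and 1.55% fell in the third.

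**Figure D5:**
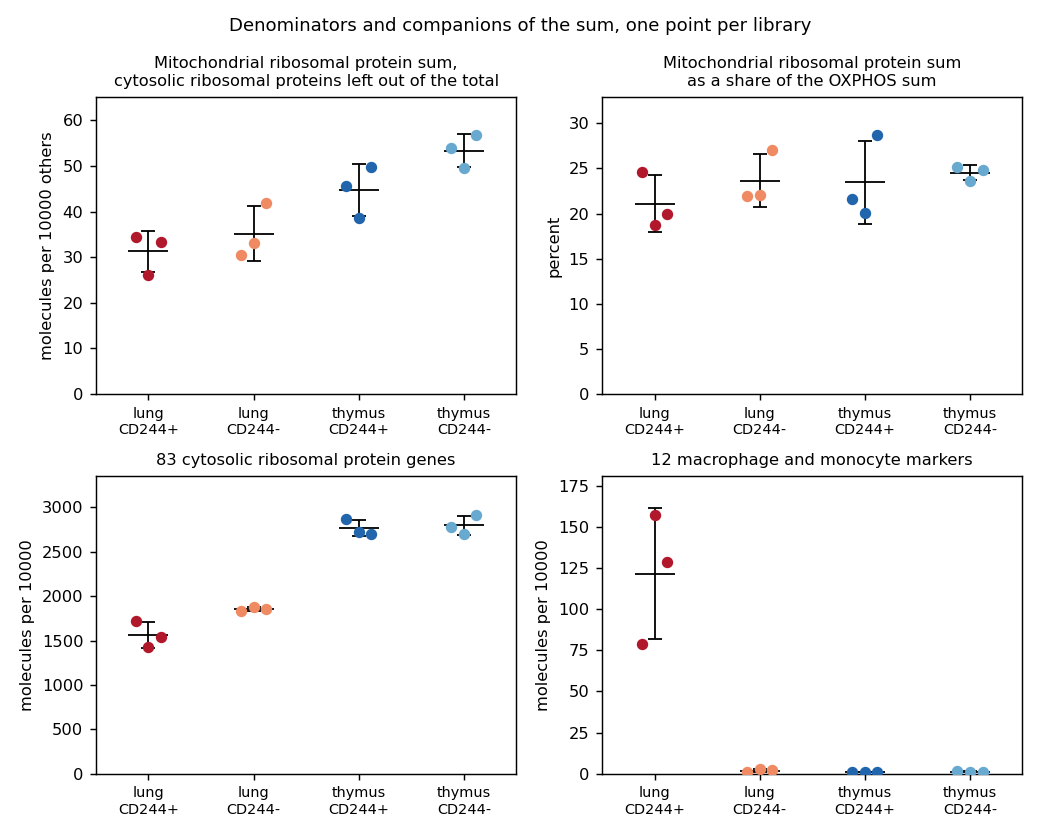
Top left, mitochondrial ribosomal protein sum per 10000 molecules after cytosolic ribosomal protein genes are left out of the total; top right, the sum as a percent of the OXPHOS sum; bottom, the sums of cytosolic ribosomal protein genes and of macrophage and monocyte markers in molecules per 10000 (points, libraries; line and bars, mean and SD, n = 3). The share of the OXPHOS sum has group means of 21.1%, 23.7%, 23.4% and 24.5% from left to right.

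Other genes of mitochondrial translation were fewer in molecules still. Of 7 mitochondrial ribosome proteins with other symbols 5 were tested, and 1 passed: Chchd1, a small subunit protein, rose in lung CD244-positive against lung CD244-negative cells with a log2 fold change of 1.20, a standard error of 0.40 and a limma adjusted p of 0.0451. With lung CD244-positive library 1 alone this limma adjusted p was 0.527. It missed the threshold in 19 of the 23 other settings that tested the gene, among them 11 of the 12 fits that left out 1 library (0.0171 to 0.171). Of 13 mitochondrial translation factors 3 were tested and 0 passed in any comparison. The elongation factor Tufm had its largest log2 difference, 0.66, in lung against thymus CD244-positive cells, with a limma adjusted p of 0.414. Of 25 genes of ribosome assembly and ribosomal RNA modification 5 were tested and 0 passed. Their sum, 2.35 ± 0.690 per 10000 in lung CD244-positive, 3.81 ± 0.457 in lung CD244-negative, 3.78 ± 0.385 in thymus CD244-positive and 4.57 ± 0.291 in CD244-negative thymus cells, did not overlap in any of the 4 pairs compared. These sums rested on 33, 35, 72 and 89 molecules in the same order, and 10 of the 25 genes were at 0 in each lung group. Lung CD244-positive library 1 alone, at 2.66, also lay below every lung CD244-negative and thymus CD244-positive library. Divided by the TCR complex genes, the only pair of this sum without overlap was lung against thymus CD244-negative cells. Both pairs with lung CD244-positive cells turned direction, at ratios of 1.39 and 1.06. With library 1 alone these were 1.09 and 0.833. Of 13 genes of mitochondrial transcription and RNA handling 4 were tested and 0 passed.

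Of 17 mitochondrial aminoacyl-tRNA synthetases only Lars2, which charges leucine tRNA, was tested. It rose in lung against thymus, with a log2 fold change of 1.24 among CD244-positive cells (limma adjusted p = 0.0160) and of 1.33 among CD244-negative cells (limma adjusted p = 0.0144), opposite in sign to the median mitochondrial ribosomal gene. The call among CD244-positive cells was lost without lung CD244-positive library 2 (0.180) or 3 (0.0646) or thymus CD244-positive library 1 (0.146), with lung CD244-positive library 1 alone (0.686), with values as deposited (0.0865), with thinned molecules (0.0536) and with edgeR (0.207). The call among CD244-negative cells was lost without lung CD244-negative library 1 (0.0924) or thymus CD244-negative library 1 (0.141), with values as deposited (0.0722) and with scaling to the TCR complex genes (0.162). Of 10 nuclear regulators of mitochondrial genes 5 were tested. Tfe3, a lysosome-linked transcription factor, rose in lung CD244-positive against lung CD244-negative cells with a log2 fold change of 1.20 and a limma adjusted p of 0.0419. It missed the threshold in 15 of the 19 other settings that tested it, among them 8 of the 9 fits without 1 library (0.0190 to 0.122). With lung CD244-positive library 1 alone it did not pass the filter. In lung against thymus CD244-negative cells, Myc, a driver of growth and ribosome genes, fell with a log2 fold change of -1.58 (limma adjusted p = 0.00807), and Gabpb1, a partner subunit of GABPA, rose with one of 1.42 (limma adjusted p = 0.0222). The Myc call was lost without lung CD244-negative library 3 (0.0517). The Gabpb1 call was lost without lung CD244-negative library 1 (0.0571) or 3 (0.0518), without thymus CD244-negative library 1 (0.0888) or 3 (0.181), with no filter (0.0509) and with scaling to the TCR complex genes (0.167). Nrf1 was not past the threshold in thymus, at a log2 fold change of -0.68 and a limma adjusted p of 1.

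Fold changes were also set beside the upstream motifs. Of the tested members with an upstream window, 18 had an ETS, NRF1 or YY1 match and 22 had none. In lung against thymus CD244-negative cells the median log2 fold change was -0.27 with a match and -0.39 without, and in CD244-positive cells it was -0.26 and -0.20. Between CD244-positive and CD244-negative cells it was -0.15 with a match and 0.24 without in lung, and -0.21 and -0.10 in thymus. No p-value was computed for these splits.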

How the data were processed

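RNA was measured in 12 libraries of 100 sorted cells. Barcodes in the oligo-dT primer marked single molecules, and spike-in RNA was added, per the labels. The submitters' processing notes name STAR, without a version, and the mm10 build. How molecules were counted, on which annotation, and how they were scaled is not given in the sources used here. The values deposited by the authors are a signal: a molecule count times 1 constant per library. Lung columns shared 1 total and thymus columns another, 1.39 times as large. The table holds 0 spike-in rows and 0 mitochondrially encoded rows.

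Every library was rescaled to the mean total, 23117 units. Molecules were recovered by division by the most frequent value of the column, which made 94.3% to 95.9% of the values above 0 whole (tolerance 1e-06) in each library. The other values were fractions of a molecule. Since this unit is not counts, the test was limma 3.58.1 (trend and robust options, R 4.3.3), 1 model with 4 groups, on log2(value + 1), two-sided, for genes over 1 in at least 3 libraries. Folds on this scale understate changes of genes with low values. Exact tests of 3 against 3 libraries cannot go below 0.1. Intervals are exact binomial at 95%, and floors are 3 molecules over a group. Both cover counting error only, and a group of 3 libraries had 92037 to 194465 molecules behind its values.

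The members, gene lists and tests were chosen with earlier results of these data known. Genes were named by rule: members past the threshold, the 4 with the smallest p in each direction of a comparison, the 10 with the highest mean level, and of each other list those past the threshold or the 2 with the smallest p. Some are not printed. Cd244, Cxcr6, and the members found in 1 library or without overlap were named after their values were seen.

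Other settings were pseudocounts of 0.5 and 5, no filter, a filter of 5, values as deposited, quantile normalization, scaling to TCR (T cell receptor) complex genes, a replicate block, sample quality weights, thinning to the shallowest library, edgeR 4.0.16 on rounded molecule numbers of 9 libraries, fits restricted to the compared groups, and leaving out single libraries. EdgeR left out lung CD244-positive library 2, thymus CD244-positive library 1 and thymus CD244-negative library 2, in which fewer of the lowest values were multiples of 1 step. Lung CD244-positive library 1 alone was added after seeing the data. Whether replicate numbers pair the libraries could not be decided, and the main model did not pair them.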

Additional observations from a re-analysis of the deposited data

How the results depend on the processing

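In thymus 0 members were called under each of 24 other settings. In lung CD244-positive against CD244-negative cells, where 1 member was called, the count was 2 with a pseudocount of 0.5, 9 with scaling to the TCR complex genes, and 0 with quantile normalization, sample quality weights, thinned molecules, only the libraries compared, edgeR or lung CD244-positive library 1 alone; leaving out single libraries gave 0 to 2. The Mrpl9 call was lost in 9 of 23 settings (adjusted p up to 0.254) and its direction held in all of them. In lung against thymus CD244-positive cells, where 0 were called, the count was 1 with no filter, quantile normalization, thinned molecules or scaling to the TCR complex genes, 2 with values as deposited, and 0 to 1 without single libraries. In CD244-negative cells, where 1 was called, it was 2 with a pseudocount of 0.5, 6 with values as deposited, 0 with edgeR, and 1 to 2 without single libraries. Mrps14 passed in each of the 23 settings that gave it a value (adjusted p 0.000106 to 0.0256). Settings that only left out libraries from outside a comparison could not change its log2 fold change. It stayed at -1.75 for Mrps14 and at 1.34 for Mrpl9 in these, which are counted above. They could move only the shared estimate of the spread and the adjustment. The interaction count was 1 with scaling to the TCR complex genes and 1 with thinned molecules, and 0 without any single library. EdgeR tested only 2 members, Mrpl33 and Mrpl30. For the other changes the cause was not tested.

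Scaling to the TCR complex genes moved the median log2 fold change of all genes to 0.68 in lung and 0.48 in lung against thymus CD244-positive cells, and values as deposited moved it to -0.27 and -0.29 in the tissue comparisons of CD244-positive and CD244-negative cells. Under the first of these scalings the members' median in lung was 0.50, below that of all genes.

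The log2 ratio of the sums, with TCR complex genes as denominator, was -0.01 for CD244 in thymus, 1.03 for CD244 in lung, 0.45 for lung against thymus CD244-positive cells and 1.04 for the interaction. Without cytosolic ribosomal protein genes in the total it was -0.51 in CD244-positive and -0.60 in CD244-negative cells. Leaving out single libraries gave -0.34 to -0.16 in thymus, -0.21 to 0.03 in lung, -0.38 to -0.19 and -0.57 to -0.33 for lung against thymus in CD244-positive and CD244-negative cells, and 0.04 to 0.28 for the interaction.

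With the replicate block the counts stayed at 0, 1, 0, 1 and 0, with an adjusted p of 0.0372 for Mrpl9 in lung and 0.00373 for Mrps14. Deviations of same-numbered libraries correlated at -0.012 to 0.014 across genes. Counting noise at these molecule numbers could hide a pairing, so this does not decide whether the numbers pair the libraries. A filter of 5 left 0 members and gave no value, and a sum without pseudogenes was not run because none of the 78 symbols names one. With a median of 19 molecules per gene over 12 libraries, counting error is wide, as in the interval of 1.06 to 19.5 for the Mrpl9 ratio in lung.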
